A study of Mus musculus with 6 samples.

Results

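The miR-129 microRNAs (miRNAs) were read out as 3 mature species, miR-129-5p, miR-129-2-3p and miR-129-1-3p, which were taken by name (mmu-miR-129-5p, mmu-miR-129-2-3p and mmu-miR-129-1-3p) from the 1907 mature miRNAs counted in each library. They were chosen by their level difference between the groups compared here, so their own levels and differences are given as a description, without a test. The libraries came from primary fibroblasts of newborn mouse skin, cultured over 6 days and used at passage 1. In 3 mice (caNrf2, genotype Col1a2Cre-caNrf2) a Cre recombinase under the fibroblast-active Col1a2 promoter switched on a constitutively active mutant of Nrf2, the transcription factor of antioxidant and detoxification genes, and 3 mice with the Cre alone (ctrl, genotype Col1a2Cre-wt) served as controls. All mice were a 50% C57Bl/6 and 50% FVB/N mix. Cells that did not use the Col1a2 promoter would not have carried the active transgene, and miRNA counts give no check of Nrf2 itself.

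A miRNA precursor is a hairpin whose stem gives a 5p and a 3p mature strand, and the seed, bases 2 to 8 of the mature strand, largely decides which messenger RNAs it pairs with. miR-129 is best known as a brain-enriched miRNA of neurons, and as a miRNA that is often silenced in tumours by methylation of its Mir129-2 gene, with the transcription factor Sox4 among its known targets. The mouse genome holds a pair of precursors, Mir129-1 and Mir129-2, which give the same 5p strand but differ in the 3p strand.

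The sequences below show why the precursors can be told apart by their 3p strands only. They were taken from RefSeq (GRCm38.p6, the mm10 build), which held entries for 2 of the 3 mature species. In the mature strands the capitals mark the seed:
miR-129-5p: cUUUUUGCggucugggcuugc
miR-129-2-3p: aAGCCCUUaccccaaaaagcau
The hairpins follow, with the 5p strand and the 3p stretch in capitals:
Mir129-2: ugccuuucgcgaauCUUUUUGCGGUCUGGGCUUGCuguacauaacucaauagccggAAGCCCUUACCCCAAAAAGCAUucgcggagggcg
Mir129-1: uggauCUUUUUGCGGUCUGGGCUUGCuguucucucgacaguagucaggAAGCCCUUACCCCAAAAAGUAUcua
The 21 bases of miR-129-5p are the same in both hairpins. The 22-base 3p stretch of Mir129-1 differs from miR-129-2-3p by 1 base, C20U, counted from 1 at the 5′ end of the 3p strand, with the base of miR-129-2-3p first. That base lies outside the seed, so the 3p strands share their seed. A 3p read of 19 bases or fewer from this start fits both precursors. In an alignment of the hairpins that let the ends overhang at no cost, 60 of 70 aligned bases were identical. The stretch between the arms was 21 bases in Mir129-2 and 22 in Mir129-1. No other mature miRNA among the 1679 names in the RefSeq table had either seed. The table covers 1623 of the 1907 counted names, and the seeds of the other 284 were not examined.

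The precursors lie on different chromosomes. Mir129-2 is at chr2:94241364-94241453 on the minus strand, inside an intron of Mir670hg, a long noncoding RNA of the same strand, 23465 bases from the start of that gene (mm10, GENCODE M21). Its miR-129-5p strand spans 94241419 to 94241439 and its miR-129-2-3p strand 94241376 to 94241397. Mir129-1 is at chr6:29022619-29022691 on the plus strand, within an exon of the long noncoding RNA Gm3294, upstream of the leptin gene Lep. A further annotated precursor, Mir129b, occupies chr2:94241378-94241442 on the opposite strand of Mir129-2 and reads as the reverse complement of part of it.

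miR-129-5p was the most abundant of the 3 species and was about 4 times as high in caNrf2 fibroblasts. Levels are CPM, library-scaled counts after TMM adjustment for library composition. In control libraries 1, 2 and 3 miR-129-5p had 961, 1494 and 1996 counts, or 92.6, 90.9 and 98.5 CPM. In caNrf2 libraries 1, 2 and 3 it had 5651, 9433 and 9982 counts, or 396, 392 and 357 CPM. Every caNrf2 library lay above every control library, and the lowest caNrf2 level was 3.63 times the highest control level. Within a group the libraries were close to each other, the highest being 1.08 times the lowest among controls and 1.11 times among caNrf2 libraries. The means were 94.0 ± 4.01 CPM in control and 382 ± 21.4 CPM in caNrf2 fibroblasts (SD, n = 3 each), and the fitted log2 fold change was 2.02 ± 0.09 (SE, edgeR).

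miR-129-2-3p, the strand that only Mir129-2 can give when read at full length, was also higher in caNrf2 fibroblasts. Control libraries 1, 2 and 3 had 125, 181 and 307 counts, or 12.04, 11.01 and 15.2 CPM. caNrf2 libraries 1, 2 and 3 had 756, 1012 and 1291 counts, or 53.0, 42.0 and 46.2 CPM. The groups did not overlap, and the lowest caNrf2 level was 2.77 times the highest control level. The spread within a group was wider than for the 5p strand, with the highest library at 1.38 times the lowest among controls and at 1.26 times among caNrf2 libraries. The means were 12.7 ± 2.16 and 47.1 ± 5.54 CPM (SD, n = 3 each), and the fitted log2 fold change was 1.88 ± 0.17 (SE, edgeR).

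miR-129-1-3p, the 3p strand of the chromosome 6 precursor, was close to the limit of detection. It had 2, 5 and 5 counts in control libraries 1, 2 and 3 and 4, 7 and 10 counts in caNrf2 libraries 1, 2 and 3, where 3 counts correspond to between 0.107 and 0.289 CPM. The levels were 0.193, 0.304 and 0.247 CPM in controls and 0.281, 0.291 and 0.358 CPM in caNrf2 libraries, and the groups overlapped. Summed over each group it reached 0.255 CPM in control and 0.317 CPM in caNrf2 fibroblasts (95% exact Poisson intervals 0.132 to 0.445 and 0.196 to 0.484). The ratio was 1.24, with a 95% interval of 0.584 to 2.77 that covers counting error only. With so few counts the miRNA did not pass the low-count filter, and no difference between the groups was detectable at this depth.

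**Figure D1:**
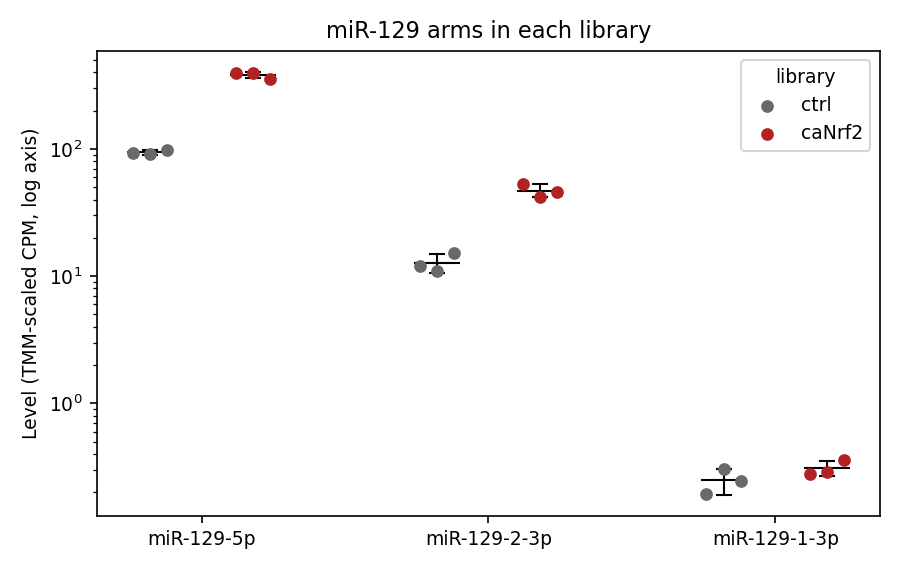
Levels of the 3 miR-129 species in each library, in TMM-scaled CPM on a log axis; points are libraries, horizontal bars are group means and whiskers are SD (n = 3 per group). The caNrf2 libraries lie above all controls for miR-129-5p (357 to 396 against 90.9 to 98.5 CPM) and miR-129-2-3p (42.0 to 53.0 against 11.01 to 15.2 CPM), while the groups overlap for miR-129-1-3p below 0.4 CPM.

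Nearly all 3p counts carried the Mir129-2 sequence. The share of miR-129-2-3p among all 3p counts was 98.4%, 97.3% and 98.4% in control libraries 1, 2 and 3, out of 127, 186 and 312 counts. It was 99.5%, 99.3% and 99.2% in caNrf2 libraries 1, 2 and 3, out of 760, 1019 and 1301 counts. All 3 caNrf2 shares were above all 3 control shares, with means of 98.04% ± 0.63 and 99.3% ± 0.12 (SD, n = 3 each). This restates the higher miR-129-2-3p level beside the few counts of miR-129-1-3p and is not a separate result. The exact Clopper-Pearson 95% intervals of single libraries were wide among controls, down to 93.8%, and overlapped between the groups. Over all libraries Mir129-1 accounted for 33 of 3705 counts, or 0.891%. These shares rest on 1 base near the 3′ end, so trimmed reads or reads with a sequencing error at that base can have been given to the wrong precursor, and how such reads were treated is not given in the sources used here.

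The balance between the strands was similar in both groups. Control libraries 1, 2 and 3 had 7.69, 8.25 and 6.50 counts of miR-129-5p for each count of miR-129-2-3p, and caNrf2 libraries 1, 2 and 3 had 7.47, 9.32 and 7.73. The lowest ratio was in control library 3 and the highest in caNrf2 library 2, and the group ranges overlapped, with means of 7.48 ± 0.89 and 8.18 ± 1.00 (SD, n = 3 each). The height of the ratio itself is uncertain, because 5p reads fit both precursors and may have been counted once, more often or not at all, whereas full-length 3p reads fit 1 of them.

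**Figure D2:**
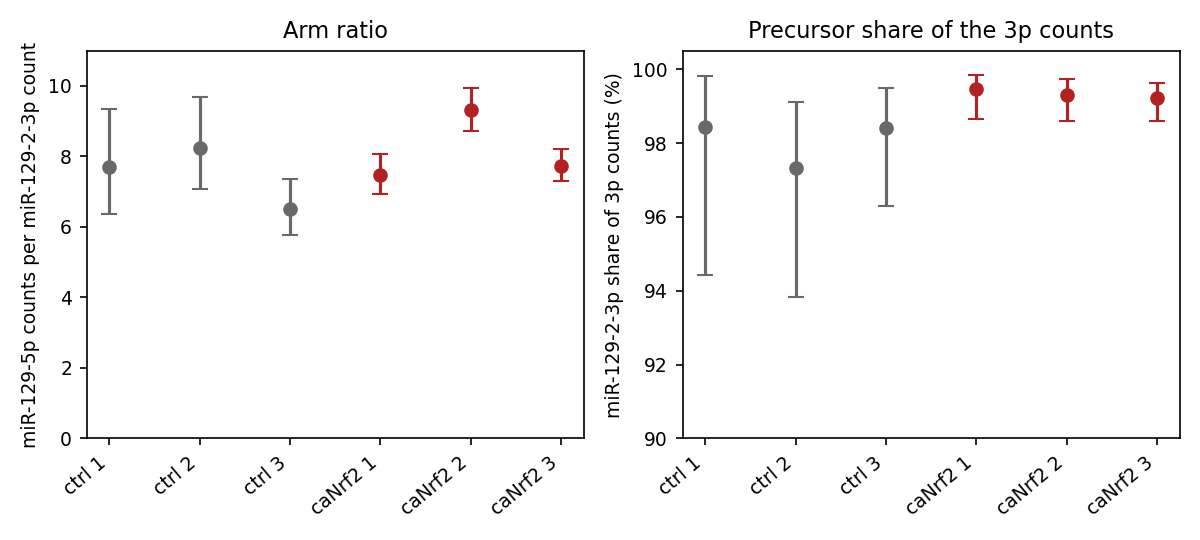
Left, counts of miR-129-5p per count of miR-129-2-3p in each library; right, percent of all miR-129 3p counts that are miR-129-2-3p (the axis starts at 90%). Points are libraries and bars are exact 95% intervals for counting error. The strand ratios of the groups overlap (6.50 to 8.25 and 7.47 to 9.32). The 3 caNrf2 shares lie above the 3 control shares, which restates the higher miR-129-2-3p level.

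The log2 fold changes of both strands were also set beside those of other hairpins. Strands were paired where both passed the low-count filter and had the same name, or the same name but for a precursor number on 1 strand, as with miR-129-5p and miR-129-2-3p. This gave 250 pairs, 211 of one name and 39 with a number on 1 strand, and some of the latter share a strand. The miR-129 strands differed by 0.14 on the log2 scale, the 5p being higher. The median absolute gap over all pairs was 0.18, and 40.4% of pairs had a smaller gap than miR-129. Both strands were over 2-fold higher in caNrf2 fibroblasts in 8 pairs, those of miR-129-2, miR-138-1, miR-142a, miR-344d-2, miR-344d-3, miR-672, miR-874 and miR-1948, where the pairs of miR-344d-2 and miR-344d-3 share their 3p strand. Some of these strands were rare, with means over all libraries of 0.51 CPM for miR-344d-2-5p, 0.52 for miR-874-5p and 1.11 for miR-672-3p. The 5p was the more abundant strand in 55.2% of the 250 pairs, as in miR-129. The more abundant strand exceeded the other by a median of 14.9 times, against 7.95 times for miR-129, and 151 pairs were more lopsided than miR-129.

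**Figure D3:**
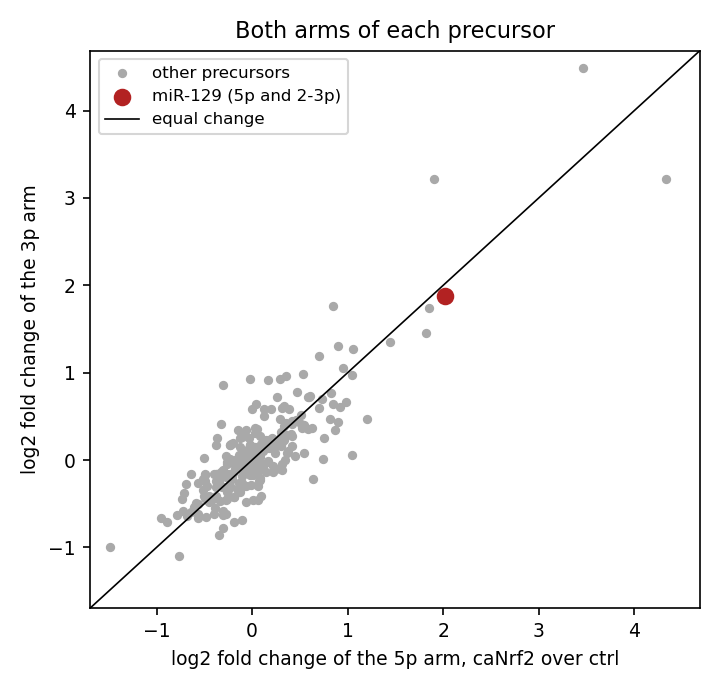
Log2 fold change (caNrf2 over ctrl) of the 5p strand on the x axis and of the 3p strand on the y axis for 250 pairs, with the line of equal change. miR-129 (2.02 and 1.88) lies near that line, below the pair of miR-138-1 (3.46 and 4.49) and the pair of miR-344d-2 (4.34 and 3.21) in both strands. The 5p strand of miR-344d-2 averaged only 0.51 CPM.

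Among all 697 tested miRNAs the log2 fold change of miR-129-5p held rank 7 from the top and that of miR-129-2-3p rank 10. Among the 371 of these that averaged 10 CPM or more, the ranks were 5 and 6. Only miR-138 and miR-344 species stood above miR-129-5p, of which miR-344d-2-5p and miR-344-3p averaged only 0.51 and 1.49 CPM. The background was broad: in 23.7% of all tested miRNAs every caNrf2 library lay above every control. In order of mean level over the 1907 names, miR-129-5p moved from rank 196 in control to rank 113 in caNrf2 fibroblasts and miR-129-2-3p from rank 353 to rank 253. Each read stands for a whole mature miRNA, so these levels need no scaling by length, but strands differ in how well they are ligated and sequenced.

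The genomic surroundings of Mir129-2 gave almost no other counts. Within 2 Mb lay 6 other precursors with 12 mature names, which together had 6 counts over all libraries. miR-670-3p, from the Mir670 precursor 19.9 kb away in the same host RNA, had 2 counts in each group, and miR-670-5p had none. The antisense miR-129b-5p had 1 count in each group and miR-129b-3p had none, against 3672 counts of miR-129-2-3p, so few reads were assigned to the strand opposite Mir129-2.

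Within 2 Mb of Mir129-1 lay 5 precursors with 10 mature names, of which 7 could be tested and 1 passed as changed. miR-335-5p, from a precursor in the imprinted gene Mest, rose from 142 ± 23.6 to 266 ± 17.5 CPM (log2 fold change 0.90 ± 0.13, edgeR adjusted p = 7.25e-04). The other strand, miR-335-3p, at 144 ± 34.7 and 195 ± 38.7 CPM, did not pass (edgeR adjusted p = 0.113). miR-182-5p, miR-183-5p, miR-183-3p and miR-96-5p, of a cluster best known from sensory cells, had log2 fold changes of 0.34 ± 0.17, 0.41 ± 0.19, 0.30 ± 0.21 and 0.34 ± 0.23 and did not pass (edgeR adjusted p from 0.137 to 0.325), though miR-182-5p was called higher without caNrf2 library 1 (adjusted p = 0.0317). With no low-count filter miR-182-5p, miR-183-5p and miR-335-3p were called higher (edgeR adjusted p = 0.015, 0.0295 and 0.00412). miR-592-5p stayed low, with 0.872 ± 0.401 and 1.34 ± 0.11 CPM (edgeR adjusted p = 0.231). miR-182-3p had 17 control and 31 caNrf2 counts, miR-96-3p had 4 and 24, and neither was tested, and miR-592-3p had none. Over the 22 names around both precursors, 1 of 7 tested was higher in edgeR and none lower (none lower also at an unadjusted p under 0.05 and in DESeq2), where 14.1% of all tested miRNAs were higher and 11.6% lower. The median log2 fold change of the 7 was 0.41, against 0.03 over all tested miRNAs.

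Since miR-129 is known from brain, a list of 22 other brain-enriched miRNAs was examined. It was chosen with earlier results of these data known and includes miR-138 and miR-344 species, which had the largest differences. Its counts of calls are therefore a description only. Of 14 tested, 8 were higher, 1 was lower and 5 did not pass, beside the 14.1% higher and 11.6% lower over all tested miRNAs. Their median difference was 0.50 on the log2 scale. The higher members included miR-138-5p (3.46 ± 0.15), miR-138-1-3p (4.49 ± 0.27), miR-344b-3p (3.33 ± 0.20), miR-344d-3p (3.21 ± 0.21) and miR-344-3p (2.37 ± 0.30), all log2 fold changes with SE and with edgeR adjusted p of 4.61e-04 or smaller. Of these miR-344-3p was low, with 6, 11 and 5 counts in control and 37, 61 and 65 in caNrf2 libraries 1, 2 and 3. It passed the low-count filter mainly through the caNrf2 libraries, which favours a call of higher. Without the miR-138 and miR-344 species 3 of 9 were higher and 1 lower, with a median of 0.17. These 3 had log2 fold changes of 0.68, 0.60 and 0.41, smaller than those of the miR-129 strands, which were chosen for their difference. miR-9-5p, which promotes neuronal differentiation, rose from 7.58 ± 1.91 to 12.3 ± 0.98 CPM (edgeR adjusted p = 0.0219). miR-338-3p, a miRNA of myelinating glia, rose from 17.4 ± 2.48 to 26.5 ± 3.61 CPM (edgeR adjusted p = 0.0204). miR-128-3p, abundant in brain, rose from 142 ± 3.41 to 188 ± 4.02 CPM (edgeR adjusted p = 0.00551). Dropping control library 1 or any single caNrf2 library ended the call of miR-9-5p (adjusted p from 0.0527 to 0.0687). Dropping control library 1, caNrf2 library 2 or caNrf2 library 3 ended the call of miR-338-3p (0.0644 to 0.0818). miR-873a-5p fell from 9.79 ± 1.97 to 3.48 ± 1.03 CPM (edgeR adjusted p = 0.00102).

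The defining marker of neurons was nearly absent. miR-124-3p, the most characteristic miRNA of neurons, had 8 counts in all controls and 9 in all caNrf2 libraries and was at 0 in at least 1 library, as were miR-137-3p and miR-153-3p. Each count of markers called in edgeR stands beside the 14.1% higher and 11.6% lower over all tested miRNAs. Of the 7 neuron markers 2 were tested, miR-9-5p and miR-128-3p, and both were higher. Their summed level was 145 to 154 CPM in control and 199 to 204 CPM in caNrf2 libraries, most of it miR-128-3p. Of 5 glia and melanocyte markers 1 of 4 tested was higher, with sums of 27.8 to 29.8 and 34.4 to 43.1 CPM, and miR-219a-2-3p was at 0 throughout. Of 3 endocrine markers 1 of 2 tested was higher, with sums of 8.86 to 12.7 and 19.7 to 27.3 CPM, and miR-7b-5p was at 0 throughout.

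Other cell types that a skin culture can hold were also read, against the same 14.1% higher and 11.6% lower. Of 7 blood cell markers 4 were higher (sums of 386 to 476 and 648 to 760 CPM), as were all 4 tested of 5 muscle markers (343.8 to 421 and 558 to 737 CPM). The blood cell markers did not all go 1 way: at an unadjusted edgeR p under 0.05, 5 were higher and 1 was lower. A sum also hides differences between single miRNAs known from blood cells. miR-486a-5p averaged 460 CPM over all libraries, with a log2 fold change of 0.47. It was 1.85 for miR-142a-5p, 1.74 for miR-142a-3p and 1.90 for miR-223-3p, beside 2.02 and 1.88 for the miR-129 strands. The rare miR-144-3p, at a mean of 0.69 CPM, went the other way (-0.998). None of 7 keratinocyte markers (1035 to 1865 and 1600 to 2121 CPM) or of 2 endothelial markers (116 to 165 and 147 to 170 CPM) was called by edgeR. Among the keratinocyte markers 1, miR-205-5p, had an unadjusted edgeR p under 0.05 and was called higher by DESeq2, and no endothelial marker met either criterion. The part of these cell types in the miR-129 difference was not tested, and in bulk libraries more cells of a type and more RNA per cell cannot be told apart. The 8 miRNAs listed for fibroblasts and mesenchymal cells, such as miR-22-3p and miR-143-3p, which other cell types also express, were abundant in every library, at 456737 to 467475 CPM in control and 479519 to 517266 CPM in caNrf2 libraries in sum. Of these 8, 1 was higher, miR-22-3p, and 3 were lower in edgeR. Most of the sum was miR-22-3p, miR-21a-5p and miR-143-3p (means of 199719, 109606 and 93421 CPM over all libraries), so it says little of the others. Log2 fold changes were 0.31, 0.03 and 0.28 for these in that order and 0.31 for miR-145a-5p. They were -0.51 for miR-199a-5p, -0.41 for miR-199a-3p, -0.27 for miR-214-3p and -0.56 for miR-10b-5p. The mean of miR-22-3p was 178081 CPM in control and 221357 CPM in caNrf2 fibroblasts (edgeR adjusted p = 0.0349). Its call was lost with RLE scaling and on dropping control library 2 or 3 or any single caNrf2 library (edgeR adjusted p from 0.0675 to 0.115).

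Of 9 miRNAs reported elsewhere to respond to Nrf2, other than miR-129, 8 were tested. 2 rose and 2 fell, beside the 14.1% higher and 11.6% lower over all tested miRNAs. The directions reported elsewhere were not compared with these, and this list too was chosen with earlier results of these data known. miR-206-3p, a muscle miRNA, rose from 3.86 ± 0.73 to 7.93 ± 0.62 CPM (edgeR adjusted p = 9.45e-04). The collagen-repressing miR-29a-3p went from 7116 ± 391 to 9112 ± 602 CPM (edgeR adjusted p = 0.0106). The falls were in miR-125b-5p and miR-378a-3p, at -0.38 and -0.51 on the log2 scale (edgeR adjusted p = 0.0299 and 0.0149). Of these 4 calls only that of miR-206-3p held whichever library was left out. miR-29a-3p lost it on dropping caNrf2 library 2 or 3 (adjusted p = 0.0577 and 0.0516), miR-125b-5p on dropping control library 2 or any single caNrf2 library (0.0595 to 0.0689), and miR-378a-3p on dropping control library 3 or caNrf2 library 1 (0.0637 and 0.0558). miR-29b-3p, miR-193b-3p, miR-365-3p and miR-200a-3p had log2 fold changes of 0.47, 0.20, 0.17 and 0.25 and did not pass (edgeR adjusted p from 0.0719 to 0.535). miR-29b-3p was called higher with no filter, without control library 1, without caNrf2 library 1 and in DESeq2 (adjusted p from 0.00133 to 0.0432). miR-1a-3p had 9 and 16 counts in the groups. The median over the 8 was 0.23. The log2 fold changes of both miR-129 strands were larger than that of any of these 8, but miR-129 was chosen for its difference.

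**Figure D4:**
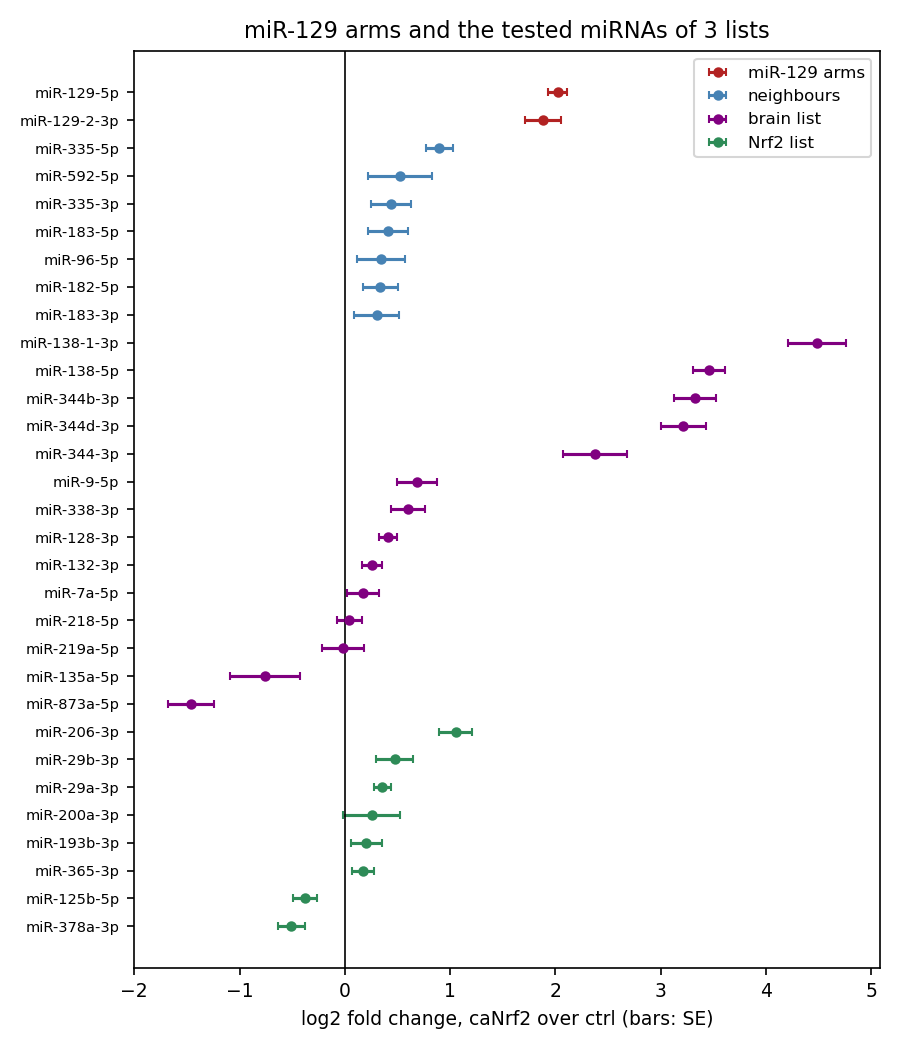
Log2 fold change (caNrf2 over ctrl, x axis, bars are SE) of the miR-129 strands and of the tested miRNAs near their precursors, of the brain list and of the Nrf2 list (y axis). The miR-129 strands, which were chosen for their difference, lie near 2, above all neighbours and Nrf2-list miRNAs. Only miR-138 and miR-344 species of the brain list lie higher.

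Among the 370 other tested miRNAs that averaged 10 CPM or more, those whose log2 CPM followed miR-129-5p most closely over the 6 libraries were miR-138-5p (Pearson r = 0.996), miR-877-5p (0.995), miR-672-5p (0.992), miR-22-3p (0.990) and miR-29c-3p (0.990). miR-129-2-3p came next, at rank 6 with r = 0.989. The libraries fall into the compared groups, so these values mostly follow the difference between the groups, whatever its size: the log2 fold change was 3.46 for miR-138-5p and 0.31 for miR-22-3p. On deviations from the group means miR-129-2-3p held rank 33, with r = 0.58, and none of the other 5 remained among the first 5.

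The core antioxidant response element, the motif that Nrf2 binds with its small Maf partners, was searched as TGACNNNGC on both strands. It occurred in none of 4 overlapping RefSeq promoter windows of Mir670hg, each reaching from 250 bases before to 50 after a transcript start. Of all 32851 windows of 300 bases, 12.4% held it. The table gave no window for Mir129-1, Mir129-2 or Gm3294.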

How the data were processed

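The deposited values are raw counts of reads per mature miRNA, 1 file per library, with no normalization by the authors recorded. Per the submitters' processing notes CASAVA 1.8, cutadapt, Bowtie, featureCounts, edgeR and the mm10 build were used; for order, settings, miRNA release and multi-mapping reads, nothing is stated in those notes. Per the file headers all libraries share 1 run and lane. Totals were 10443268 to 28237159 counts, and 1050 to 1200 miRNAs were detected per library; no molecular identifiers are named, so intervals cover counting error only.

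All miRNAs were fitted with edgeR 4.0.16 (R 4.3.3; filterByExpr with a minimum count of 10, TMM, glmQLFit, then glmQLFTest on a model with group alone), with Benjamini-Hochberg adjustment over the 697 tested miRNAs and a threshold of 0.05. SEs come from the F statistic. log2 CPM for correlations used a prior count of 2. Per the series design each library is from a different mouse. Members and lists were chosen with earlier results of these data known. Named were the miR-129 species, neighbours and Nrf2-list miRNAs with counts, the called brain-list miRNAs and miR-124-3p, and the 5 miRNAs most like miR-129-5p. The miRNAs named in the comparison of strand pairs, those named from blood cells and those named as at or near 0 were chosen after their values were seen. The fit was tested on simulated data for this comparison (200 of 697 miRNAs changed, 684 passing the filter): 58.4% of 1.5-fold, 89.5% of 2-fold and 100% of 4-fold changes were found, and 4.32% of calls were false. The data were drawn once from the count model of the fit, with the variability estimated from these libraries. They therefore cover no batch, litter or other effect outside that model. Alternatives were other scalings, filters, DESeq2 1.42.0, a replicate block and leaving out each library.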

Additional observations from a re-analysis of the deposited data

How the results depend on the processing

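The miR-129 differences kept their direction and stayed within the replicate spread in every alternative that gave a value (other scalings, DESeq2, filters, a replicate block, each library left out). Without single libraries the log2 fold change was 1.98 to 2.06 for miR-129-5p, 1.77 to 2.03 for miR-129-2-3p and 0.17 to 0.47 for miR-129-1-3p, and the gap between the first 2 was 0.03 to 0.21. miR-129-1-3p had no value in DESeq2, the replicate block or the stricter filter, where it was not among the miRNAs fitted. With only miRNAs of at least 10 CPM, which leaves 371 to test, 60 miRNAs were called higher in place of 98, no brain-list miRNA was lower in place of 1, and 1 Nrf2-list miRNA was higher in place of 2. Leaving out single libraries gave 1 to 3 Nrf2-list miRNAs higher and 0 to 2 lower, and 1 to 2 neighbours higher. With no filter 4 neighbours were higher. Without the miR-138 and miR-344 species, an alternative chosen after seeing the data, 3 brain-list miRNAs were higher. Whether the replicate numbers pair the libraries is not known. The deviations of same-numbered libraries correlated at 0.18, 0.11 and -0.22 for numbers 1, 2 and 3. Those of different-numbered libraries correlated at -0.36 to 0.36, and so few values cannot decide the question. In the fit with the replicate number as a block 102 miRNAs were higher and 87 lower, 2 neighbours were higher (miR-335-3p joined at an adjusted p of 0.0116), and the log2 fold changes were 2.02 for miR-129-5p and 1.89 for miR-129-2-3p. The motif with a further A at its 3′ end occurred in 3.04% of promoter windows and in none of Mir670hg. Depth limits miR-129-1-3p most, with 33 counts in all.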
